A study of Bubalus bubalis with 8 samples.

Results

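The HSP70 family members HSPA1A, HSPA6, HSPA8, HSPA2, HSPA4 and HSPA9 were followed in cultured buffalo mammary epithelial cells (MECs) recovering from heat stress. Members were chosen by gene name, 6 of the 24839 names on the array, and were read by 18 of its 43653 probes outside the control spots. HSPA1A was read by 5 probes, HSPA6 by 1, HSPA8 by 6, and HSPA2, HSPA4 and HSPA9 by 2 each. The MECs (Bubalus bubalis) came from the mammary tissue of 1 adult animal and were used at passage 10. Unstressed cells kept at 37 °C (CTR) were set against cells held at 42 °C for 1 h and harvested at 7 time points, from 30 min to 24 h, of recovery at 37 °C. RNA was labelled with Cy3 and read on a bovine oligonucleotide array, so buffalo transcripts were measured with cattle sequences. Each condition had 1 array and thus no replicate check. The same CTR array served as the reference for every time point, so a change with time in culture cannot be told apart from recovery. No test was made, and every comparison below sets single arrays side by side.

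HSP70 proteins bind unfolded stretches of other proteins and release them in a cycle driven by ATP. J-domain proteins (DNAJ) deliver the clients and nucleotide exchange factors reset the cycle. In mammalian cells HSPA1A and HSPA6 are the stress-inducible cytosolic forms, switched on by heat shock factor 1. HSPA8 is the constitutive cytosolic form (HSC70), HSPA2 is a form best known from the testis, HSPA4 belongs to the HSP110 group that acts as an exchange factor, and HSPA9 (mortalin) works in the mitochondrial matrix.

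The probes themselves decide which transcripts are read, so some of them are shown 5′ to 3′ as the array files give them. A_73_P359866 (HSPA1A) and A_73_P341276 (HSPA8), used at length below, are not among those shown. Lower case is used throughout, and capitals mark bases that differ from the probe each one was aligned to. All positions are on the bovine build Btau_3.1 as written in the files, which name no exon or UTR. HSPA1A was read by A_73_104629 (chr23:27311987-27312046, minus strand) and A_73_P474283 (chr23:27313147-27313206, minus strand):
A_73_104629: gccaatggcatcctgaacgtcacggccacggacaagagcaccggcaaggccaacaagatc
A_73_P474283: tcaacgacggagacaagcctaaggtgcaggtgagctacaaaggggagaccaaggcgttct

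A further pair of HSPA1A probes shared most of their letters. A_73_P268106 matched A_73_P275126 at 53 of 54 aligned bases and carried 1 extra base. The files map 60 bases of A_73_P275126 (chr23:27312716-27312775) and 30 bases of A_73_P268106 (chr23:27311277-27311306), both on the minus strand. These positions do not overlap, although the letters do. Capitals in the second probe mark the bases without an equal partner in the first:
A_73_P275126: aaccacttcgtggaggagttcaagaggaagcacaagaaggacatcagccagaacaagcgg
A_73_P268106: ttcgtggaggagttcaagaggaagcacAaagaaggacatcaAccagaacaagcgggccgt

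HSPA8, HSPA6 and HSPA2 were read at the same part of the family's shared sequence by A_73_115239 (chr15:32348525-32348871, minus strand, a range wider than the probe), A_73_P092016 (chr3:8748912-8748971, minus strand) and A_73_P049436 (chr10:78880002-78880061, plus strand). The HSPA6 probe equalled the HSPA8 probe at 42 of 57 aligned bases and the HSPA2 probe equalled it at 24 of 30. Capitals mark the bases that differ from HSPA8:
A_73_115239: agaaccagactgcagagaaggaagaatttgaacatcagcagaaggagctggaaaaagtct
A_73_P092016: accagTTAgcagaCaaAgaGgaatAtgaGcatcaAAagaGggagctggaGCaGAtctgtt
A_73_P049436: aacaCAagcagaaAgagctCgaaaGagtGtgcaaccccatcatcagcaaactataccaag

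The longest run of letters that the HSPA6 and HSPA8 probes shared was 9 bases. In CTR the HSPA8 probe was bright, with an intensity of 6304, and the HSPA6 probe sat at 37.2, the value shared by all spots of that array that were not above the noise. With the 5 HSPA1A probes the HSPA6 probe shared no run longer than 8 bases. Whether it also reads HSPA1A was not tested. The files list accessions of 2 near-identical HSPA1A copies for its probes, so that these cannot be told apart.

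A level is given as log2 of the intensity minus the 75th percentile of the same array, and a change is the difference of a level from that in CTR. Levels of different probes are not comparable, so each probe was followed across arrays. The error of a change, taken from repeated spots of bright probes, ran from 0.30 (8 h) to 0.49 (16 h) in log2 units and covers spot noise alone. At 30 min, where 2 bright probes had repeated spots, the spread of CTR was used for both arrays, which gave 0.30. At 30 min the scanner intensities departed from the deposited log2 values, and the latter were used there. The choice decides the sign for 3 of the 5 HSPA1A probes. By the scanner intensities the 30 min change would be -3.84 for A_73_104629, -3.64 for A_73_P359866 and -1.82 for A_73_P275126, but 6.73 for A_73_P474283 and 1.34 for A_73_P268106. Every 30 min value below rests on the deposited values. A probe was called dim where it was not well above background. The fold of a probe dim on 1 side is a bound, in which the dim array takes the lowest level among its spots well above background, or the level of the probe where that is higher. Members had 1 spot each and none carried an outlier mark.

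A dark area of the CTR array touched some members. Bright probes in a rectangle of the CTR array read low, and 3 members lie there, HSPA1A A_73_P268106, HSPA8 A_73_P403651 and HSPA8 A_73_P334021. Bright probes within 10 spots of these 3 stood at a median of -3.77, -1.02 and -0.68 (log2) against their own median over 6 other arrays. For the other 15 members the same measure lay between -0.28 (A_73_P359866) and 0.50 (A_73_119652). On 6 of the other arrays the same measure for these 15 ran from -0.92 (A_73_120225, 24 h) to 0.54 (A_73_P275126, 16 h). For A_73_115239 it was 0.38 in CTR and -0.57 at 16 h. For A_73_101271 it was 0.32 in CTR and -0.67 at 2 h. The part of such local shifts in the changes below was not tested. Probes were set apart by the CTR array alone. The 15 probes outside the area carry the results below, and the 3 inside are given apart.

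**Figure D1:**
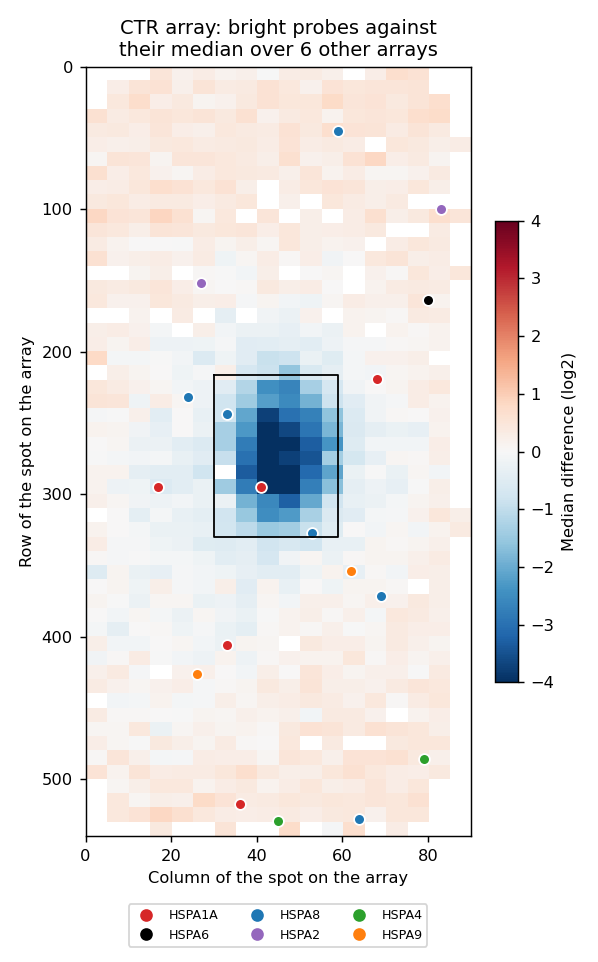
Map of the CTR array by row and column of the spots, coloured by the median difference (log2) of bright probes from their median over 6 other arrays in blocks of 10 rows and 5 columns. Points mark the 18 member probes and the box the dark area; 3 members lie inside it.

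The arrays lay on 2 slides, and this limits which comparisons stand on equal ground. CTR, 8 h, 12 h and 24 h shared slide 1, while 30 min, 2 h, 4 h and 16 h shared slide 2, where slide and recovery time cannot be told apart. Among probes outside the dark area that were above background on CTR and the array compared, the share that was 3-fold higher was 0.389% for the 8 h array, 0.055% for 12 h and 0.0329% for 24 h. For the arrays of slide 2 it was 3.41% (30 min), 2.34% (2 h), 1.62% (4 h) and 2.93% (16 h). With the probes of the dark area included, the share was 1.42% to 1.96% on slide 1 and 2.92% to 4.98% on slide 2. The median change of all such probes was between -0.41 (2 h) and -0.01 (16 h).

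Markers of other cell types also differed between the slides. Epithelial markers were present on every array, with 7 of 14 probes above background at 30 min and 8 to 13 on the others. KRT5, KRT14, KRT19 and EPCAM were well above background on all of them. KRT18 went the other way: all its probes were dim on slide 1, CTR included, and at 30 min and 4 h. Its probe A_73_118812 was above background at 2 h and 16 h, and A_73_P097441 at 2 h. Leukocyte markers gave 3 to 5 of 23 probes above background on the 4 arrays of slide 1, but on slide 2 the number was 18 on the 30 min array, 18 on the 2 h array, 11 on the 4 h array and 12 on the 16 h array. The log2 of their summed level was 8.59 at 30 min and 8.12 at 2 h, against 5.30 to 6.34 elsewhere. All 3 probes of ITGAM, an integrin of myeloid cells, were dim on all arrays, whereas both probes of the adaptor TYROBP and all 5 of CD74 were above background at 30 min and 2 h. LCP1, an actin-bundling protein of leukocytes, was above background on all arrays, CTR included. Among the epithelial markers, the KRT8 probe A_73_108833 was lower than in CTR by 2.28 to 3.70 on slide 2 and by 0.25 to 0.60 on slide 1. Fibroblast markers gave 19 of 35 probes above background at 16 h and 11 at 4 h, against 0 to 3 on the others. The log2 of their summed level was 7.38 at 16 h and 1.67 to 4.02 elsewhere. In bulk RNA a change in the share of a cell type and a change of RNA per cell cannot be told apart. The part of these markers in the HSP70 values of slide 2 was not tested, and slide 1 is therefore described first.

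**Figure D2:**
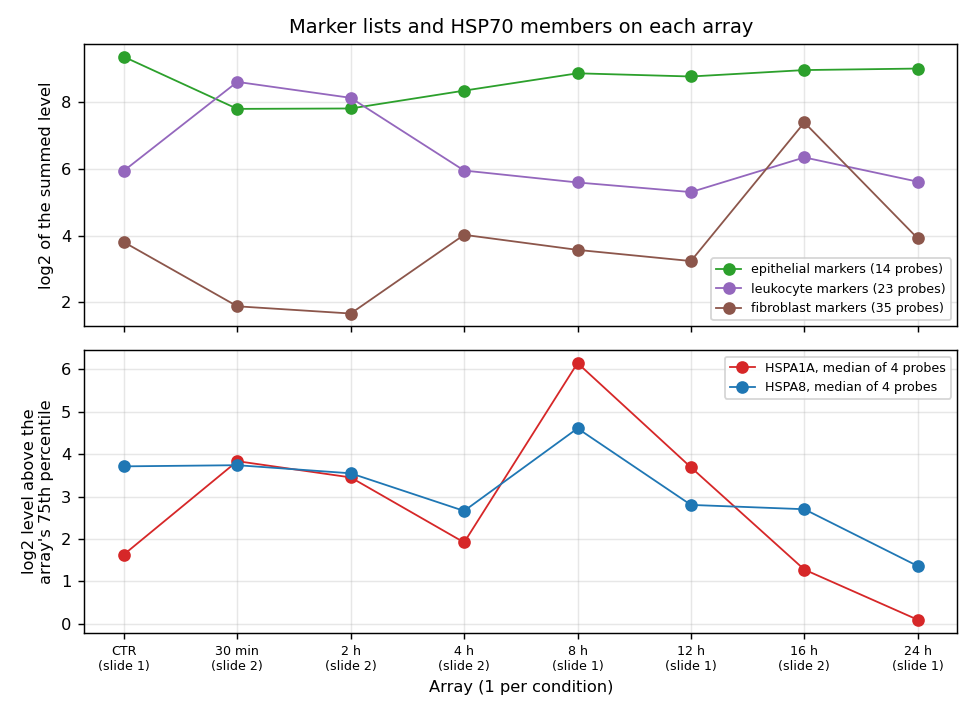
Upper panel: log2 of the summed level of the epithelial, leukocyte and fibroblast marker probes on each array. Lower panel: median log2 level of the 4 HSPA1A and the 4 HSPA8 probes whose CTR spot lies outside the dark area. Leukocyte markers stood highest at 30 min and 2 h, fibroblast markers at 16 h, and HSPA1A at 8 h.

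HSPA1A had its highest level at 8 h in all 5 probes. The probe A_73_P359866, which the files place nowhere on the build, was above background on all arrays. On slide 1 its level was 2.47 in CTR, and the 8 h array gave 7.03, the 12 h array 5.41 and the 24 h array 1.05. On slide 2 the 30 min array gave 5.88, the 2 h array 5.30, the 4 h array 4.27 and the 16 h array 3.17. The 8 h array stood above every other, and the 24 h array below CTR. The 12 h level lay between those of 30 min and 2 h, which were 0.58 ± 0.35 apart. Relative to CTR this probe was 23.6-fold higher at 8 h (change 4.56 ± 0.30), 7.71-fold higher at 12 h and 2.67-fold lower at 24 h.

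The probe A_73_104629 was also highest at 8 h and lowest at 24 h. Its intensity was 1353 in CTR, 63288 at 8 h, where it was the single saturated member spot, 14215 at 12 h and 1213 at 24 h. The intensity at 8 h is therefore a lower limit, and the fold there was at least 32.9. The fold was 5.27 at 12 h and the change -0.82 ± 0.37 at 24 h. On slide 2 its level was 5.02 on the 30 min array, 4.76 on the 2 h array, 3.46 on the 4 h array and 2.61 on the 16 h array, against 2.67 in CTR, and the 16 h and CTR levels did not differ beyond their error.

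The other HSPA1A probes outside the dark area were dimmer. A_73_P474283 was dim in CTR and on the 16 h and 24 h arrays, with levels of -1.21, -0.93 and -2.08. It reached 4.91 at 8 h, at least 34.5-fold above CTR, and 1.68 at 12 h, at least 3.67-fold above. On the early arrays of slide 2 it stood at 2.65, 2.14 and 0.38, in order of time. A_73_P275126 stood at 0.80 in CTR, while the 8 h array gave 5.26, the 12 h array 2.30 and the 24 h array, where it was dim, -0.85. It was 21.9-fold higher at 8 h, 2.83-fold higher at 12 h and at least 1.48-fold lower at 24 h. Its early levels on slide 2 were 2.24, 1.90 and 0.38 in order of time, and 16 h gave -0.05. All 4 probes outside the dark area were thus above CTR at 8 h and 12 h. At 24 h the 3 that were above background in CTR were below it, and the other, A_73_P474283, was dim on both arrays. Under 5 other scalings the 8 h changes of these 4 probes stayed between 3.48 (normexp) and 6.29 (median centring).

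The pair of HSPA1A probes with shared letters differed on the CTR array. A_73_P268106, inside the dark area, was dim there with a level of -2.51, while A_73_P275126, with almost the same letters, was above background with 0.80. Elsewhere A_73_P268106 stood between -2.08, dim at 24 h, and 4.63 at 8 h, with 1.89 at 12 h and 1.30 at 30 min. Both probes were highest at 8 h. No fold is given for A_73_P268106, since its CTR spot was dim and lay in the dark area.

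HSPA6 was dim in CTR and on the 4 h, 16 h and 24 h arrays. On slide 1 its level was -2.51 in CTR, and the 8 h array gave 3.65, the 12 h array 0.33 and the 24 h array -2.08. On slide 2 the 30 min array gave 2.56, the 2 h array -0.92, the 4 h array -4.04 and the 16 h array -2.39. The 8 h and 30 min arrays were highest, and the dim arrays sit at the shared noise value of each array and have no order. HSPA6 was at least 14.4-fold higher than CTR at 8 h, at least 6.76-fold higher at 30 min and at least 1.44-fold higher at 12 h. At 2 h it was above background, but below the lowest level that counted as above background in CTR, so no bound could be set. From 8 h to 12 h, both measured on slide 1, HSPA6 was lower by 3.32 ± 0.34.

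**Figure D3:**
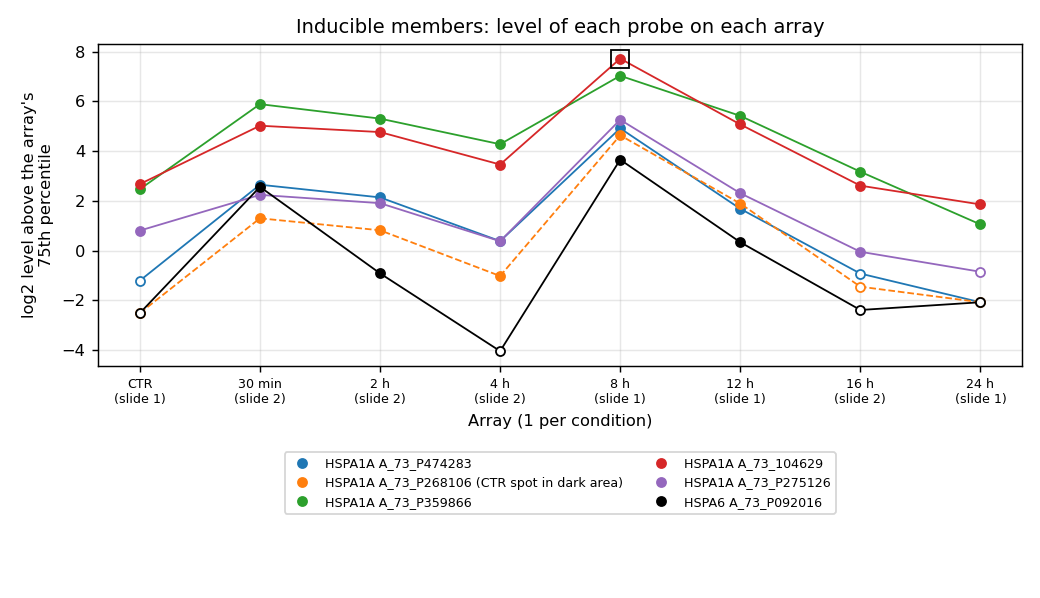
Level (log2 above the 75th percentile of the array) of the 5 HSPA1A probes and the HSPA6 probe on each of the 8 arrays. Filled points were above background, open points were dim, the square marks the saturated spot, and the dashed line is the probe with its CTR spot in the dark area. All 6 lines peak at 8 h, with a lower maximum at 30 min.

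On slide 2 the inducible members were measured from 30 min on. The 4 HSPA1A probes outside the dark area had levels of 2.24 to 5.88 at 30 min and 0.38 to 4.27 at 4 h. From 2 h to 4 h each was lower by 1.03 to 1.76, beyond the error of 0.39. From 30 min to 2 h the differences were 0.26 (A_73_104629) and 0.33 (A_73_P275126), within the error of 0.35, and 0.51 (A_73_P474283) and 0.58 (A_73_P359866), beyond it. The 30 min level rests on the deposited values and could not be recentred with the other arrays. Set against 16 h, an array of the same slide, A_73_104629 was higher by 2.41 ± 0.49 on the 30 min array, 2.15 ± 0.52 on the 2 h array and 0.85 ± 0.52 on the 4 h array. A_73_P359866 was higher by 2.72, 2.13 and 1.10. For A_73_P275126 the difference from 16 h was 2.29 at 30 min and 1.95 at 2 h, but 0.42 ± 0.52 at 4 h, where the probe was 0.43 below CTR. At 30 min and 2 h HSPA1A was thus above both CTR and 16 h in the 3 probes above background on these arrays. Across slides, the 3 HSPA1A probes not saturated at 8 h stood 1.14 (A_73_P359866), 2.27 (A_73_P474283) and 3.02 (A_73_P275126) above 30 min, and the saturated A_73_104629 at least 2.70 above. The leukocyte markers were raised at 30 min and 2 h, and their part in the HSPA1A and HSPA6 levels of these arrays was not tested.

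HSPA8, the constitutive form, was above background on all 8 arrays in all 6 probes. The probe A_73_115239, shown above, had a level of 4.89 in CTR, and slide 1 gave 5.55 on the 8 h array, 3.72 on the 12 h array and 3.21 on the 24 h array. Slide 2 gave 4.62 on the 30 min array, 4.14 on the 2 h array, 3.40 on the 4 h array and 3.29 on the 16 h array. The 8 h array was highest and the 24 h array lowest, and 16 h and 24 h did not differ beyond their error. It was 1.58-fold higher than CTR at 8 h, 2.25-fold lower at 12 h and 3.21-fold lower at 24 h.

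The brightest HSPA8 probe, A_73_P341276 (chr15:32348180-32348239, minus strand), moved further down. Its level was 5.60 in CTR, and slide 1 gave 6.43 on the 8 h array, 3.95 on the 12 h array and 2.27 on the 24 h array. Slide 2 gave 4.87 (30 min), 4.34 (2 h), 3.04 (4 h) and 3.26 (16 h). It was 1.79-fold higher at 8 h, 3.12-fold lower at 12 h and 10.0-fold lower at 24 h. For A_73_P448151 the CTR, 8 h, 12 h and 24 h arrays gave 2.53, 3.66, 1.88 and 0.46, and for A_73_P100171 they gave 2.40, 3.02, 1.32 and 0.43.

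All 4 HSPA8 probes outside the dark area thus followed 1 order within slide 1, with 8 h above CTR, CTR above 12 h and 12 h above 24 h. The changes were 0.62 to 1.13 at 8 h, -1.64 to -0.65 at 12 h and -3.33 to -1.68 at 24 h, each beyond the error of a change. Some were within the spread of all probes above background on both arrays. At 8 h A_73_115239 and A_73_P100171 lay below the 95th percentile of 0.75. At 12 h A_73_P448151 lay above the 5th percentile of -1.04. Of all probes above background on both arrays, 0.427% were 3-fold lower at 24 h, and the 4 HSPA8 probes were among them. With normexp background correction 1 of the 4 was 3-fold lower, with changes of -3.01 to -1.23, and under the other 4 scalings all 4 were. The direction at 8 h, 12 h and 24 h was the same for all 4 probes under these 5 scalings. The 2 HSPA8 probes inside the dark area had changes of 1.78 and 2.10 at 8 h and of -0.89 and -0.86 at 24 h. Both lay above the range of the 4 outside, at positions where bright probes stood at -0.68 and -1.02 in CTR. Their levels kept the order of 8 h highest and 24 h lowest.

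At 30 min and 2 h, on slide 2, the HSPA8 probes did not share 1 direction from CTR. At 30 min the changes of the 4 outside the dark area were -0.72 to 0.32, and at 4 h -2.55 to -0.25. From 2 h to 4 h each of the 4 was lower, by 0.68 (A_73_P448151) to 1.29 (A_73_P341276), beyond the error of 0.39. HSPA1A had also been lower at 4 h than at 2 h. Median centring and normexp turned the sign of 1 of the 4 at 2 h and of 1 at 4 h. Against 16 h, on the same slide, they were 0.27 to 1.61 higher at 30 min and between -0.48 and 0.14 at 4 h. HSPA8 at 30 min, by the deposited values, therefore had no shared direction from CTR across slides, and was above 16 h within its slide. The error of 0.49 exceeds the smallest of these differences from 16 h. By the scanner intensities the 30 min changes from CTR would be 2.64 (A_73_115239) and 3.17 (A_73_P448151), but -3.57 (A_73_P100171) and -4.99 (A_73_P341276). The latter pair would then lie below 16 h, where their changes were -0.75 and -2.33.

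**Figure D4:**
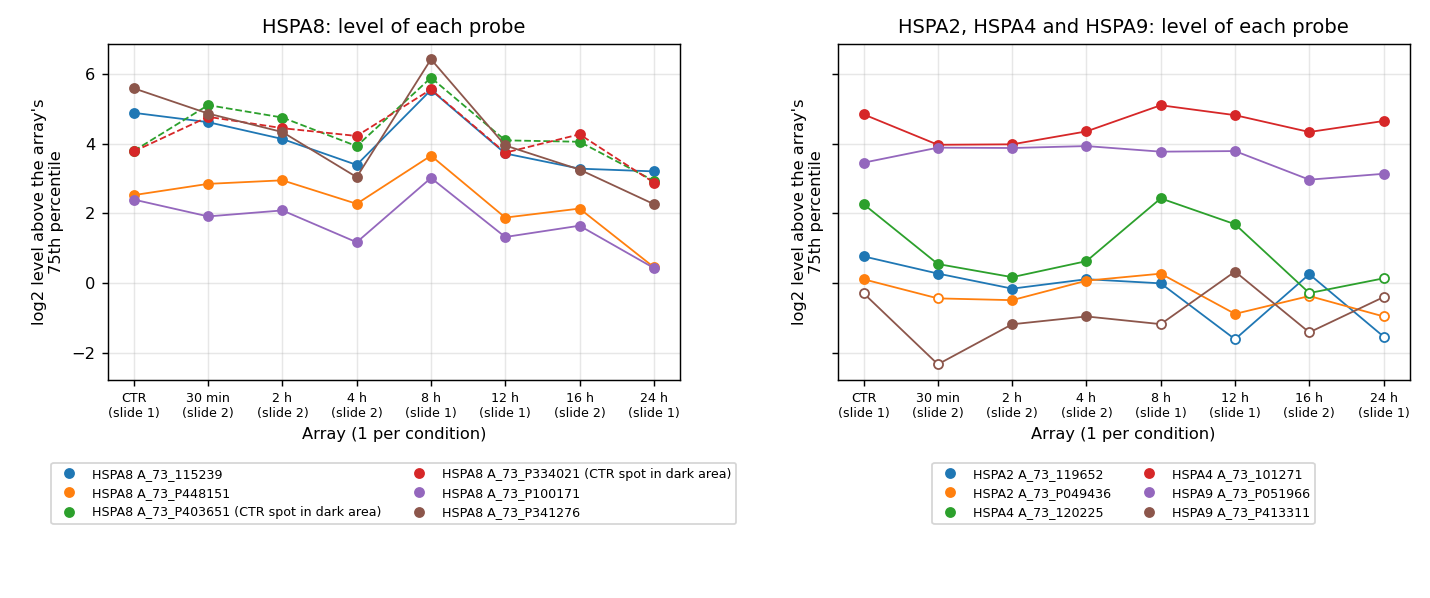
Level (log2 above the 75th percentile of the array) of the 6 HSPA8 probes (left) and of the HSPA2, HSPA4 and HSPA9 probes (right) on each array. Filled points were above background, open points were dim, and dashed lines are probes with their CTR spot in the dark area. HSPA8 was highest at 8 h and lowest at 24 h in every probe, while A_73_101271 (HSPA4) and A_73_P051966 (HSPA9) stayed within 1.14 and 0.97 over all 8 arrays.

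HSPA4, the HSP110-type exchange factor, was read by 2 probes that differed from each other. The brighter, A_73_101271 (chr7:44376416-44376475, plus strand), is shown as the HSPA4 probe above background on all arrays:
A_73_101271: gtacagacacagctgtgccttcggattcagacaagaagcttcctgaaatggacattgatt
Its level was 4.85 in CTR, with 5.11, 4.83 and 4.66 on the 8 h, 12 h and 24 h arrays of slide 1. The arrays of slide 2 gave 3.97 (30 min), 3.99 (2 h), 4.36 (4 h) and 4.34 (16 h). The 4 arrays of slide 1 lay within 0.45 of each other, and the 4 of slide 2 below all of them. On slide 1 no change exceeded 0.26, within the error of a change. The dimmer probe, A_73_120225 (chr7:44378378-44378437, plus strand), stood at 2.27 in CTR, at 2.43 on the 8 h array and at 1.69 on the 12 h array, and was dim on the 16 h and 24 h arrays with -0.29 and 0.14. It was 3.29-fold lower than CTR at 30 min, 4.28-fold lower at 2 h and 3.11-fold lower at 4 h. Within slide 2 its 16 h spot was dim, where the lowest level above background was -0.07. The 30 min and 4 h levels of 0.55 and 0.63 lay above that limit beyond the errors of 0.49 and 0.52. At 2 h the level of 0.17 lay above it within the error. The 30 min level minus the 2 h level was 0.38 ± 0.35, and the 2 h level minus the 4 h level was -0.46 ± 0.39.

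HSPA9, the mitochondrial member, was read on all arrays by A_73_P051966 (chr7:49209976-49210035, minus strand). Its level was 3.46 in CTR, with 3.78, 3.79 and 3.14 on the 8 h, 12 h and 24 h arrays of slide 1. The arrays of slide 2 gave 3.89 (30 min), 3.88 (2 h), 3.94 (4 h) and 2.97 (16 h). The changes on slide 1 were 0.32 ± 0.30, 0.33 ± 0.34 and -0.32 ± 0.37, each about the size of its error, and those on slide 2 ran from -0.49 to 0.48. A_73_P413311, the second probe, was above background on the 2 h, 4 h and 12 h arrays alone and gave no usable course.

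HSPA2 was close to background. A_73_P049436 stood at 0.11 in CTR, and the 8 h array gave 0.27, the 12 h array -0.89, the 2 h array -0.49 and the 4 h array 0.07. It was dim on the other 3 arrays. A_73_119652 lies on the same stretch of chromosome 10 (chr10:78880502-78880561, plus strand), although its description in the files names HSPA1A. Its level was 0.77 in CTR and between -0.16 and 0.27 on the 5 other arrays where it was above background, and it was dim at 12 h and 24 h. At 8 h A_73_119652 was 0.77 below CTR, where the HSPA1A probes were 4.45 or more above and A_73_P049436 was 0.16 above. Which transcript A_73_119652 reads was not tested.

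Set side by side, the inducible and the constitutive probes differed most at 8 h. Over the probes outside the dark area the median change of the 5 inducible probes (HSPA1A, HSPA6) was 5.04 for 8 h, 2.85 for 12 h and -0.87 for 24 h. For the 10 constitutive probes (HSPA8, HSPA2, HSPA4, HSPA9) it was 0.29, -0.82 and -1.82. The difference of the medians was 4.75, 3.67 and 0.95. At 24 h the constitutive median mixes unlike members. HSPA8 changed by -3.33 to -1.68 there, but HSPA4 A_73_101271 by -0.19 and HSPA9 A_73_P051966 by -0.32, both within their error. Both HSPA2 probes, A_73_120225 (HSPA4) and A_73_P413311 (HSPA9) were dim at 24 h. On slide 2 the inducible median was 3.42 (30 min), 2.09 (2 h), 0.78 (4 h) and 0.12 (16 h), against -0.52, -0.81, -0.66 and -0.63 for the constitutive probes. Dim spots enter these medians at their noise values, so they describe the probes and are no folds. The inducible median for 8 h is the value of the saturated A_73_104629, a lower limit for that probe. HSPA6 and A_73_P474283 were dim in CTR and may be overstated in this median. Neither the median nor the difference of 4.75 is therefore a bound.

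Counted past 3-fold, the inducible members stood out at 8 h. Outside the dark area 12 member probes were above background on CTR and at 8 h, and 3 of them, all HSPA1A, were 3-fold higher, beside the 0.389% of all such probes; none was 3-fold lower, beside 0.136%. At 12 h 2 of 11 were 3-fold higher, both HSPA1A, and 1 (HSPA8) was 3-fold lower, beside 0.055% and 0.476%. At 24 h none of 8 was higher and 4, all HSPA8, were lower, beside 0.0329% and 0.427%. At 30 min and 2 h the same 2 HSPA1A probes, A_73_104629 and A_73_P359866, were 3-fold higher among 11 and 12 members, beside 3.41% and 2.34%. The dimmer HSPA4 probe was the 1 member 3-fold lower at both, beside 5% and 8.98%. At 4 h 1 of 12 was higher (A_73_P359866) and 2 were lower, beside 1.62% and 5.28%. At 16 h none of 10 was higher and 2 HSPA8 probes were lower, beside 2.93% and 3.78%. Of the latter, A_73_115239 changed by -1.60, where bright probes near its spot stood at -0.57, against 0.38 in CTR. A_73_P341276 changed by -2.33, with 0.25 near its spot at 16 h and 0.42 in CTR. All counts in this paragraph leave out A_73_P474283 and HSPA6, which were dim in CTR and entered through their bounds above. Genes of the family were known to respond to heat, so the shares describe the members and support nothing further.

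**Figure D5:**
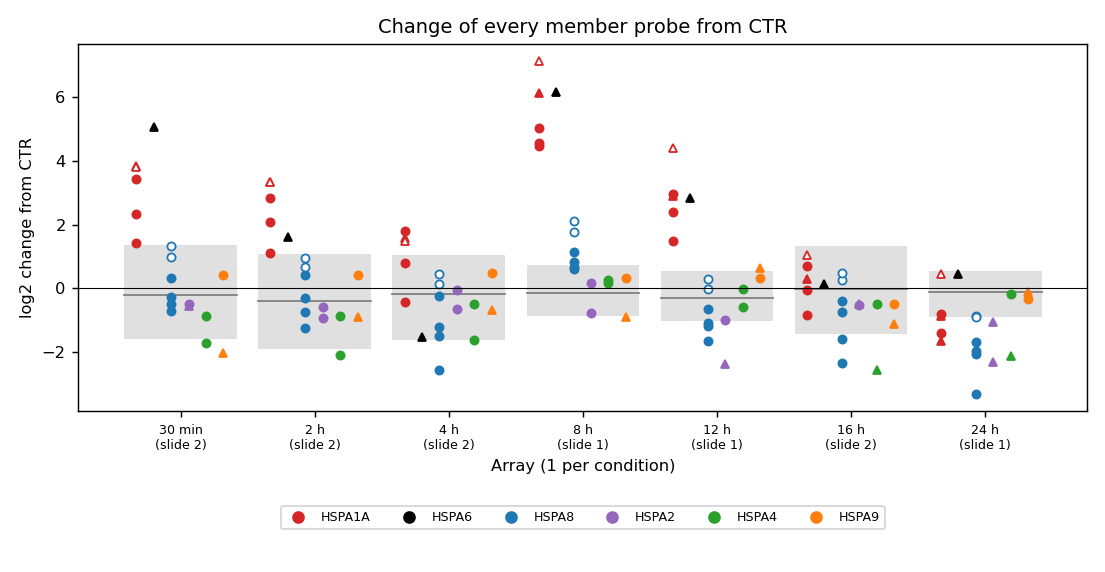
Change from CTR (log2) of all 18 member probes at each time point, coloured by gene. Circles were above background in CTR and on that array, triangles were dim on at least 1 side, open symbols have their CTR spot in the dark area, and grey bars span the 5th to the 95th percentile of all probes above background on both arrays, with their median. At 8 h all HSPA1A and HSPA6 points lie above the bar, and at 24 h the 4 filled HSPA8 circles lie below it.

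The partners of HSP70 were read from lists of cochaperones. Among the nucleotide exchange factors, 7 of 10 genes were above background on CTR and at 8 h, in 11 of 16 probes, and 3 probes were 3-fold higher there, beside 0.389% of all such probes outside the dark area. They belonged to HSPH1, the inducible HSP110, with a change of 2.88, and BAG3, which links HSP70 to selective autophagy, with 2.63 and 2.24. Another BAG3 probe had a change of -0.25. At 24 h none of the 11 probes was 3-fold from CTR in either direction. The median change of the list was 0.51 at 8 h and -0.13 at 24 h, beside -0.13 and -0.13 for all probes above background.

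Of the J-domain partners, 18 probes from all 8 genes were above background at 8 h, and 1 was 3-fold higher, beside the same 0.389%. It was a probe of DNAJB1, the heat-inducible J protein of the cytosol, with 1.78. Its second probe had 1.51. The median change of the list was 0.13 at 8 h and -0.56 at 24 h. Among adaptors and ligases between HSP70 and HSP90, 4 of 22 probes were 3-fold higher at 8 h, again beside 0.389%, 3 of HSP90AA1 and 1 of HSP90AB1. The largest change was 2.52 (HSP90AA1 A_73_P311796). The median of that list was 0.90 at 8 h. STIP1, the scaffold that hands clients from HSP70 to HSP90, had changes of 0.22 to 1.22 in its 5 probes above background at 8 h, and STUB1, the ubiquitin ligase of the pair, had -0.65 and -0.53.

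Heat shock factors and the mitochondrial chaperones did not pass 3-fold at 8 h. The HSF1 probe A_73_P044471, above background on all arrays, had changes between -0.10 (2 h) and 0.24 (4 h) on 6 arrays and 0.96 on the 16 h array, and both HSF2 probes were dim in CTR. HSPD1 and HSPE1, the mitochondrial chaperonin and its cofactor, had changes of 0.29 to 0.86 at 8 h, and none of the 8 probes of that list was 3-fold from CTR. Beside them HSPA9 had 0.32. At 16 h, 2 of 7 probes of that list above background were 3-fold lower, beside 3.78% of all such probes outside the dark area. Both were HSPD1 probes, while the HSPD1 probes A_73_P129801 and A_73_P303616 had -0.71 and 0.04 there. Of the other HSP70 genes, HSPA5, the form of the endoplasmic reticulum, had changes of 1.13 to 1.90 at 8 h in 4 probes and of -1.70 to -1.39 at 24 h, with 2 probes dim at 24 h. HSPA1L, HSPA12B and HSPA13 were dim on all arrays.

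The genes whose course was most like that of HSPA1A and HSPA8 were named by Pearson's r of the level over the 8 arrays, among 6955 probes with a gene symbol. The points share labelling, slide and scaling, so r is a description. For HSPA1A (A_73_P359866) these were HSP90AA1, SPPL2A, WAPAL, P4HB and HSP90AB1, with r between 0.93 and 0.97. The HSP90AA1 probe had changes of 2.52 at 8 h, 1.59 at 12 h and -0.05 for the 24 h array and of 0.87 to 1.77 on slide 2, whereas the other 4 had no change above 0.88. For HSPA8 (A_73_P341276) they were RPS26, CDC42SE2, YARS2, TLR2 and STT3B, with r of 0.93 to 0.94. None of the changes of these 5 exceeded 1.44 in size, against the -3.33 of HSPA8 at 24 h. With 30 min and 2 h left out, 2 of 5 genes remained for HSPA1A and 3 of 5 for HSPA8.

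The probes of 1 gene agreed to different degrees over the 8 arrays. Pearson's r between levels was 0.89 to 0.98 among the 4 HSPA1A probes outside the dark area and 0.78 to 0.98 among the 4 HSPA8 probes, and it was 0.77 for HSPA4, 0.80 for HSPA2 and -0.15 for HSPA9, where 1 probe was mostly dim.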

How the data were processed

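RNA of 8 samples was hybridised to 8 arrays, 1 per condition. The deposited intensity of each spot came from a GenePix scan and Feature Extraction 9.5.3.1, with spatial detrending and no scaling between arrays, per the file headers. The authors also deposited log2 values, scaled by the 75th percentile and centred per probe. Here log2 intensities were shifted by the 75th percentile over 43653 probes, with Python 3.11.15 (pandas 2.3.3), and at 30 min the difference of the deposited log2 values from CTR was added to the CTR level. There a probe counted as above background from 0.24, the least favourable limit among the remaining arrays. Every member probe was eligible to be named, besides the 5 genes most like HSPA1A and HSPA8. The members, lists and comparisons were chosen with earlier results of these data known. Alternatives were normexp background correction (limma 3.58.1, offset 50), quantile normalization, other centrings, the deposited log2 values, the 30 min scanner intensities, filters on dim and dark spots, 24 h as the reference and comparison within slides. The number of arrays limits the precision. The planned comparison of promoters and proteins was not run, since such sequences were not used here.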

Additional observations from a re-analysis of the deposited data

How the results depend on the processing

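With 1 array per condition no sample could be left out, no paired analysis was possible because no group had replicates, and the spot error covers neither culture nor labelling. The values here cover all 18 probes, 3 of them in the dark area, with dim spots at their noise values. With the deposited log2 values each median and difference stayed within 1 SD over its probes, and each count within 1.5 times, though 4 probes in place of 5 were 3-fold higher at 2 h. The scanner intensities at 30 min turned the inducible median to -0.24 and the changes of HSPA1A A_73_104629 and A_73_P359866 to -3.84 and -3.64, with a constitutive median of -1.50, a difference of 1.27 and 9 probes 3-fold lower; which of the 30 min sources holds the sample was not settled.

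With 24 h as the reference in place of CTR, HSPA8 A_73_P341276 turned to 0.78 (4 h), 1.69 (12 h) and 0.99 (16 h). HSPA8 A_73_115239 read 0.079 (16 h), within its error, and HSPA4 A_73_120225 read 0.41 (30 min), 0.034 (2 h) and 0.49 (4 h) against a dim 24 h spot, so neither shows a direction. The constitutive median became 1.45 (30 min), 1.15 (2 h), 0.79 (4 h), 2.32 (8 h), 0.80 (12 h) and 0.79 (16 h), and the difference of medians 1.75 (2 h) and 3.72 (8 h). The number 3-fold higher became 11 (30 min), 9 (2 h), 5 (4 h), 13 (8 h) and 3 (16 h), and the number lower 1 (30 min), 0 (2 h), 1 (4 h), 0 (12 h) and 0 (16 h). Within slide 2, against 16 h, HSPA4 A_73_120225 read 0.83 (30 min), 0.46 (2 h) and 0.92 (4 h). Its 16 h spot was dim, so these are not measured differences. With 16 h as reference the constitutive median became 0.61 (30 min) and 0.45 (2 h), and the difference 2.13 (30 min) and 1.70 (2 h). The number higher became 0 (4 h), and the number lower 0 (30 min), 0 (2 h) and 1 (4 h).

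Median centring gave a constitutive median of 0.52 (4 h), 4 probes higher (4 h), and 0 (2 h), 0 (4 h) and 1 (12 h) lower. Normexp gave 1 higher (4 h), and 0 (2 h), 1 (4 h), 0 (12 h), 1 (16 h) and 1 (24 h) lower. The 75th percentile over bright probes gave 1 higher (4 h), and 4 (4 h) and 1 (12 h) lower. Quantile normalization, which gave no 30 min value, gave 1 higher (16 h) and 1 lower (12 h). Leaving out the dark area gave 5 higher (8 h). Probes above background on both arrays gave 2 (30 min), 2 (2 h), 1 (4 h), 5 (8 h) and 2 (12 h) higher, and 1 (30 min), 1 (12 h) and 4 (24 h) lower. A 2-fold threshold gave 1 higher (16 h), and 2 (2 h), 5 (4 h) and 4 (12 h) lower. The cause of these shifts was not tested. The likeness search without 30 min and 2 h was chosen after seeing the data.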
